A study of Mus musculus with 12 samples.

Results

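The ADAMTS proteases are secreted zinc metalloproteases of the extracellular matrix. The members described here are 10 of them, Adamts1, Adamts2, Adamts4, Adamts5, Adamts7, Adamts9, Adamts10, Adamts12, Adamts15 and Adamts16, and they were found by symbol among the 55487 listed genes through their Ensembl identifiers. Their RNA was measured in C2C12 myotubes, which are multinucleated muscle cells formed by fusion of a mouse myoblast line. All cultures were differentiated for 5 days in DMEM with 2% horse serum and penicillin/streptomycin, and were then kept for 24 h in the same basal medium with either 4% horse serum (libraries 1 to 6) or 4% STEM (libraries 7 to 12). STEM holds the factors that human embryonic stem cells secrete while partly differentiated, without the cells. It took the place of horse serum, so the addition of STEM and the loss of horse serum cannot be told apart in this comparison. C2C12 is a single line, and the labels do not say whether the 6 libraries of a group came from separate cultures, so p-values measure the spread between these libraries only. In bulk RNA of this kind, a change in the number of fused or unfused cells and a change in RNA per cell cannot be told apart.

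An ADAMTS protein is made with a signal peptide and a propeptide, and convertases such as furin remove the propeptide. The catalytic domain is followed by a disintegrin-like domain, thrombospondin type 1 repeats and spacer regions that bind the matrix, and TIMP3 is the best known inhibitor of several members. The family divides by substrate into enzymes that cut versican and aggrecan (hyalectanases), procollagen N-propeptidases, a pair with cartilage oligomeric matrix protein as a known substrate, and members tied to fibrillin microfibrils or with less well known substrates. In muscle, a versican-rich coat around myoblasts is known to be cleared as the cells align and fuse.

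Every member carries the zinc-binding site that makes it a protease, and the coding bases of this site are shown because they give the family its activity and show how near the members are to one another. The capitals mark the codons of the 3 histidines that hold the zinc ion. The sequences were read from GENCODE M21 transcripts on GRCm38, and in all 10 genes the site was split by an intron, so each span given holds both exon parts.
Adamts1, exons 3 and 4, chr16:85799188-85799545, minus strand: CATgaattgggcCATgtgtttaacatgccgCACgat
Adamts2, exons 7 and 8, chr11:50775403-50776137, plus strand: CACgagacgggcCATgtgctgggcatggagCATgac
Adamts4, exons 3 and 4, chr1:171253210-171253918, plus strand: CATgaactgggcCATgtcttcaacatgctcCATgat
Adamts5, exons 2 and 3, chr16:85878012-85887826, minus strand: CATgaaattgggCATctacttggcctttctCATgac
Adamts7, exons 7 and 8, chr9:90179456-90180643, plus strand: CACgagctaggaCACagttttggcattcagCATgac
Adamts9, exons 8 and 9, chr6:92905282-92908493, minus strand: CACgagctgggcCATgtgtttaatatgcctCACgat
Adamts10, exons 9 and 10, chr17:33538157-33538282, plus strand: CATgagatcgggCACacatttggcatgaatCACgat
Adamts12, exons 7 and 8, chr15:11241529-11255567, plus strand: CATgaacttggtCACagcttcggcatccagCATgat
Adamts15, exons 2 and 3, chr9:30911252-30911690, minus strand: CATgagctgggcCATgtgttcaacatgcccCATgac
Adamts16, exons 8 and 9, chr13:70787146-70791812, minus strand: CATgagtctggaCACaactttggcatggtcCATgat

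Of the 36 bases, 14 were identical in all 10 members, and all 14 lay at the first or second position of a codon. The site was found by the protein pattern HExxHxxxxxHD, with histidine (H), glutamate (E), aspartate (D) and any residue (x). The first and second bases of the H, E and D codons were therefore identical by construction, and most of the 14 are of this kind. Pairs of members shared between 20 and 32 bases, those fixed by the pattern included. Adamts4 and Adamts15, both hyalectanases, were the nearest pair with 32 of 36, followed by Adamts1 and Adamts9 with 31. The intron followed the first 10 bases of the site in Adamts1, Adamts4, Adamts5 and Adamts15, and it followed the first 17 bases in the other 6 members.

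Depth ran from 13285472 to 18254882 counts in the horse serum libraries and from 14909485 to 24536264 counts in the STEM libraries. Levels are given as CPM, a gene's counts relative to the TMM-scaled library total, and changes as log2 fold changes of STEM over horse serum from edgeR's quasi-likelihood test, where a gene was called at a Benjamini-Hochberg adjusted p of 0.05 or less. Horse serum library 6 stood apart: the first principal component of all tested genes placed it at 11.2 against -35.5 to -24.6 for the other horse serum libraries. The second component placed it at -53.3 against 0.216 to 11.8 for the other 11 libraries. In that library 12 myotube markers summed to 12434 CPM, against 18806 to 21394 CPM in the other horse serum libraries and 16959 to 22984 CPM with STEM. Myotube identity was present throughout, while the macrophage marker Adgre1 and the endothelial markers Kdr and Tie1 had 0 counts in every library. Of the other macrophage and endothelial markers, Cd68 had 39 to 87 counts per library, Csf1r went from 0.288 ± 0.198 to 0.916 ± 0.314 CPM and Tek had 4 to 11 counts.

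With STEM, 8 of the 9 members that passed the filter on low counts were called higher and Adamts5 was called lower. Adamts15 passed through its STEM libraries alone and so had to differ, which leaves 7 higher and 1 lower among the other 8, and Adamts9 did not pass. Among those 8 the gains ran from 0.24 for Adamts10 to 1.08 for Adamts16 on the log2 scale, and Adamts5 changed by -0.49. Over all 14175 genes tested, 36.4% were called, 18.9% as higher and 17.4% as lower. The median log2 fold change was 0.56 over the 9 tested members, Adamts15 included, and 0.01 over all tested genes. Without Adamts15, the median of the other 8 lay between 0.33 (Adamts1) and 0.56 (Adamts2). No overlap between the libraries of the groups was seen for 6 members with STEM higher, Adamts15 among them, and for Adamts5, and 17.2% of all tested genes showed none (8.68% with STEM higher and 8.52% with STEM lower). With horse serum library 6 left out Adamts7 joined them, where 33.4% of all tested genes showed no overlap. Without horse serum library 6, 8 members were again higher, Adamts15 included, and 1 was lower, against 50.8% of all genes called in that fit.

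**Figure D1:**
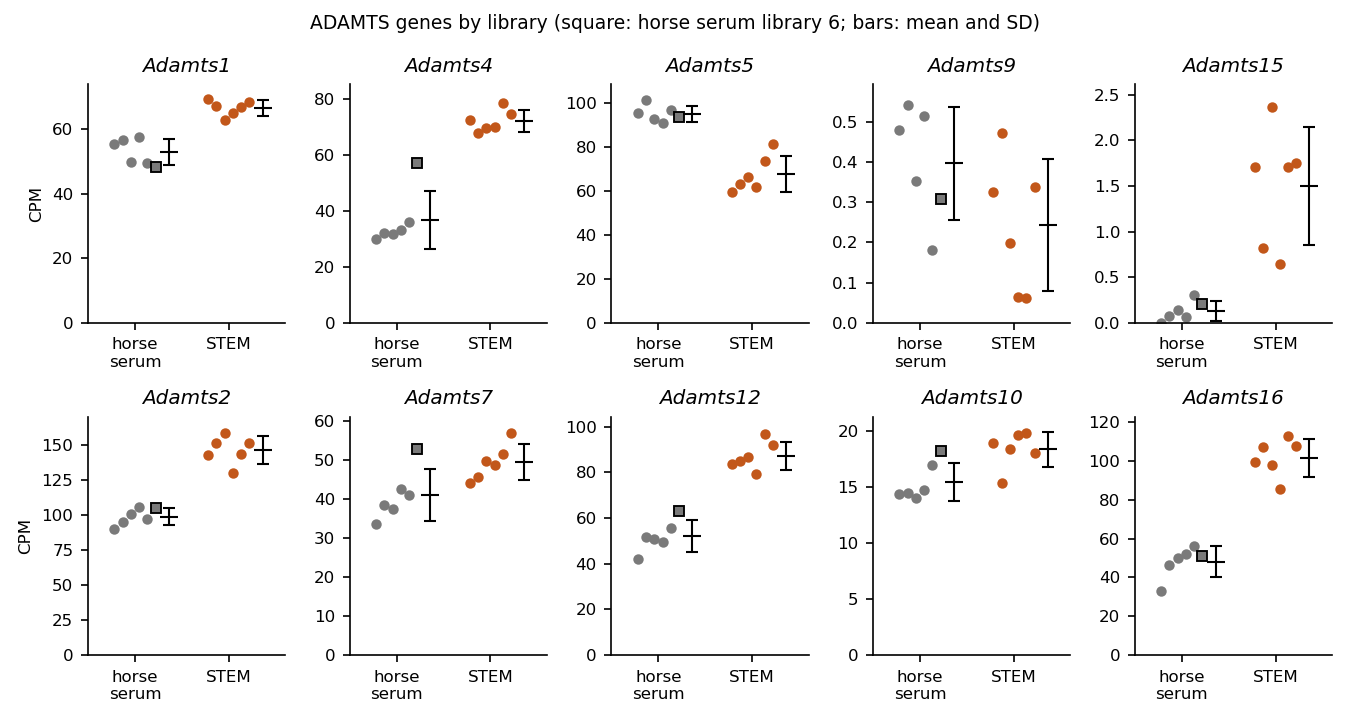
CPM of each of the 10 genes in the 6 horse serum and 6 STEM libraries, one point per library, with the mean and SD as bars and library 6 as a square. STEM lies above every horse serum library for Adamts1, Adamts2, Adamts4, Adamts12, Adamts15 and Adamts16 and below every one for Adamts5, while the groups overlap for Adamts7, Adamts9 and Adamts10.

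**Figure D2:**
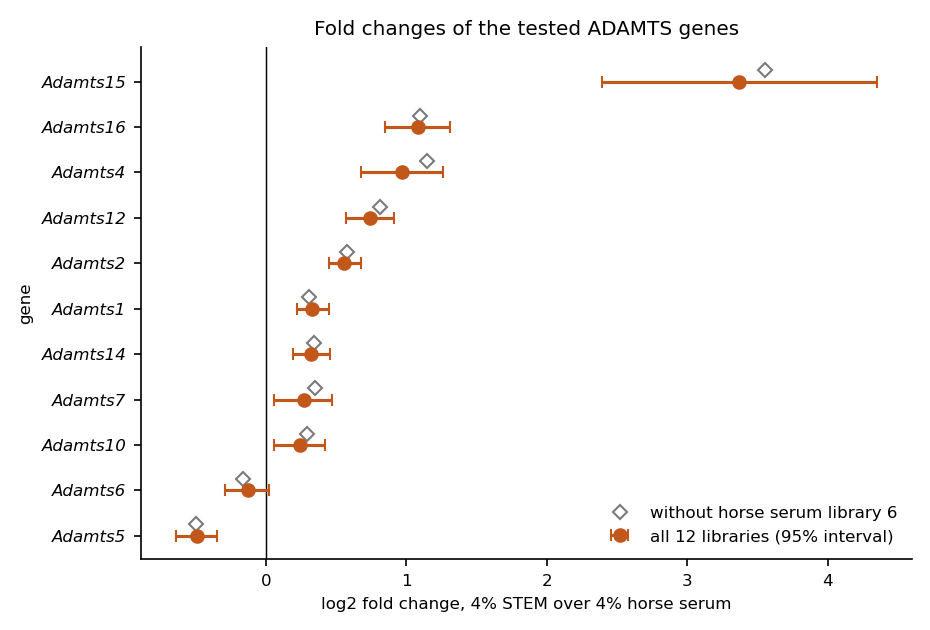
log2 fold change of STEM over horse serum with its 95% interval for the 9 tested members and for Adamts6 and Adamts14, with the value without horse serum library 6 as an open diamond. Adamts15, which passed the filter through its STEM libraries alone, is at 3.37 with the widest interval, Adamts5 lies below 0 and the interval of Adamts6 crosses 0.

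Among the hyalectanases, Adamts4 and Adamts1 rose, Adamts5 fell, and Adamts15 was nearly absent without STEM. Adamts4 (ENSMUSG00000006403, chr1:171250421-171260637, plus strand), one of the main enzymes that cut aggrecan and versican, stood at 29.9, 32.0, 31.8, 33.2, 35.9 and 57.2 CPM in horse serum libraries 1 to 6. With STEM it stood at 72.3, 67.7, 69.5, 70.0, 78.5 and 74.5 CPM in libraries 7 to 12. All 6 STEM libraries were above the highest horse serum library, and library 6 was far above the other horse serum libraries. The means were 36.7 ± 10.3 and 72.1 ± 3.92 CPM (SD, n = 6), and edgeR put the log2 change at 0.97 ± 0.13 (SE) with an adjusted p of 1.09e-04. Without library 6 the log2 fold change was 1.15.

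Adamts5 (ENSMUSG00000022894, chr16:85856173-85901828, minus strand), the other major aggrecanase and also a versican-cutting enzyme, moved the other way. Its levels were 95.4, 101, 92.5, 90.6, 96.8 and 93.7 CPM with horse serum and 59.5, 63.0, 66.3, 61.7, 73.4 and 81.0 CPM with STEM. The groups did not overlap, and library 6 sat in the middle of its group. The mean went from 95.0 ± 3.67 to 67.5 ± 8.20 CPM, a log2 fold change of -0.49 ± 0.068 (SE) with an edgeR adjusted p of 6.19e-05, and -0.50 without library 6.

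Adamts1 (ENSMUSG00000022893, chr16:85793827-85803113, minus strand) lies next to Adamts5 on the same chromosome and strand and also cuts versican and aggrecan. It stood at 55.2, 56.6, 49.9, 57.5, 49.5 and 48.2 CPM with horse serum and at 69.2, 67.2, 62.7, 64.8, 66.9 and 68.2 CPM with STEM. The rise was small next to that of Adamts4, but the groups did not overlap. This was a log2 fold change of 0.33 ± 0.053 (SE) with an edgeR adjusted p of 2.23e-04. These neighbours on chromosome 16 thus changed in opposite directions.

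Adamts15 (ENSMUSG00000033453, chr9:30899155-30922452, minus strand), a hyalectanase that cuts versican and aggrecan, was nearly silent with horse serum, with 0, 1, 2, 1, 5 and 4 counts. With STEM it had 42, 14, 36, 10, 28 and 26 counts. The lowest STEM library was above the highest horse serum library in CPM as well, at 0.645 against 0.302 CPM. Summed over libraries, 13 counts stood against 156, and scaled for depth the ratio was 10.8 with an exact 95% interval of 6.15 to 20.8 that covers counting error only. edgeR's log2 fold change was 3.37 ± 0.46 (SE), given as a description because the gene entered that test through the group in which it was high. Even with STEM its mean of 1.5 ± 0.647 CPM was low.

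Adamts9 (ENSMUSG00000030022, chr6:92772699-92943492, minus strand), a versican-cutting enzyme with a long tail of thrombospondin repeats, was hardly detected. It had 7, 7, 5, 8, 3 and 6 counts with horse serum and 8, 8, 3, 1, 1 and 5 counts with STEM, and the groups overlapped. The depth-scaled ratio of the summed counts, 36 and 26, was 0.652 with an interval of 0.378 to 1.11, and an exact permutation test, two-sided, gave a p of 0.119 for its CPM. The exact permutation p, two-sided, was 0.0498 without horse serum library 5 and 0.0476 without STEM library 8, so at this depth a difference depended on single libraries with few counts. Overlapping genes on the opposite strand, A730049H05Rik and Gm15737, share 9.177% and 2.818% of its exon bases, and whether the counting used the strand is not given in the sources used here.

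Adamts2 (ENSMUSG00000036545, chr11:50602084-50807573, plus strand), which removes the N-propeptide from procollagens and whose loss causes a fragile-skin form of Ehlers-Danlos syndrome, rose. It stood at 90.1, 95.1, 101, 106, 97.6 and 105 CPM with horse serum and at 143, 152, 159, 130, 144 and 152 CPM with STEM. All STEM libraries were higher, and library 6 lay with its group. The mean rose from 99.1 ± 6.18 to 147 ± 10.1 CPM, a log2 fold change of 0.56 ± 0.055 (SE) with an edgeR adjusted p of 3.16e-06. Its close relative Adamts14, another procollagen N-propeptidase, went from 34.2 ± 1.46 to 42.8 ± 4.14 CPM without overlap, a log2 fold change of 0.32 with an edgeR adjusted p of 0.0012. The third enzyme of this group, Adamts3, was at 0.672 ± 0.356 and 0.556 ± 0.164 CPM and was not tested.

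Adamts12 and Adamts7 are the pair that cut cartilage oligomeric matrix protein and carry a mucin-like stretch. Adamts12 (ENSMUSG00000047497, chr15:11064790-11349231, plus strand) stood at 41.9, 51.6, 50.9, 49.4, 55.4 and 63.2 CPM with horse serum and at 83.8, 85.1, 86.6, 79.4, 96.6 and 91.9 CPM with STEM. The groups were clear of each other even though library 6 was the highest of the horse serum group. The log2 fold change was 0.74 ± 0.080 (SE) with an edgeR adjusted p of 7.83e-06.

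Adamts7 (ENSMUSG00000032363, chr9:90163069-90208071, plus strand) stood at 33.7, 38.4, 37.5, 42.6, 41.0 and 52.9 CPM with horse serum and at 44.0, 45.6, 49.7, 48.6, 51.6 and 57.0 CPM with STEM. Library 6 overlapped the STEM range, and the other 5 horse serum libraries lay below it. Its log2 fold change was 0.27 ± 0.095 (SE), just inside the threshold with an edgeR adjusted p of 0.0401, and 0.35 with an adjusted p of 2.91e-04 without library 6. The call was lost with total-count or upper-quartile scaling and, with log2 fold changes from 0.21 to 0.28, when any 1 of horse serum libraries 1 to 5 or STEM libraries 9 to 12 was left out. Adamts7 shares 122 exon bases, 1.942% of its exon length, with Tbc1d2b on the opposite strand.

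Adamts10 (ENSMUSG00000024299, chr17:33524204-33553782, plus strand), which binds fibrillin microfibrils and is mutated in Weill-Marchesani syndrome, changed little. It stood at 14.4, 14.5, 14.0, 14.7, 17.0 and 18.2 CPM with horse serum and at 18.9, 15.4, 18.4, 19.6, 19.8 and 18.0 CPM with STEM. Libraries 5 and 6 of horse serum overlapped the STEM range. The log2 fold change was 0.24 ± 0.083 (SE) with an edgeR adjusted p of 0.0353, and 0.29 without library 6. This call was lost with total-count or upper-quartile scaling and with no filter and, with values from 0.21 to 0.24, when any 1 of horse serum libraries 1 to 4, STEM library 7 or STEM libraries 9 to 12 was left out. Its closest relative Adamts6 was at 171 ± 16.1 and 156 ± 14.9 CPM and was not called, with a log2 fold change of -0.13 (95% interval -0.29 to 0.02).

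Adamts16 (ENSMUSG00000049538, chr13:70727802-70841811, minus strand), for which fibronectin is one of the few known substrates, had the largest gain among members with more than 10 counts in every library, a place that Adamts4 took when library 6 was left out (1.15 against 1.10). It stood at 33.2, 46.5, 50.2, 52.2, 56.1 and 51.0 CPM with horse serum and at 99.3, 107, 97.9, 85.5, 113 and 108 CPM with STEM. Horse serum library 1 was the lowest, and no STEM library came near the horse serum range. The mean rose from 48.2 ± 7.97 to 102 ± 9.92 CPM, a log2 fold change of 1.08 ± 0.11 (SE) with an edgeR adjusted p of 5.11e-06.

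Exact permutation tests on CPM, gene by gene, were two-sided with 6 libraries against 6. They gave the smallest p this design allows, 0.00216, for Adamts1, Adamts2, Adamts4, Adamts5, Adamts12 and Adamts16. Adamts15 had the same exact permutation p, given as a description because it passed the filter through its STEM libraries alone. Any gene whose groups do not overlap gets this p, and 17.2% of all tested genes showed no overlap. The exact permutation p was 0.0346 for Adamts7 and 0.0195 for Adamts10. For Adamts7 it was 0.0519 to 0.0671 when any 1 of horse serum libraries 1, 2, 3 and 5 or STEM libraries 9, 11 and 12 was left out. For these last genes the groups overlapped.

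To compare members with one another, CPM was divided by exon length to give RPKM, a level per kilobase. With horse serum the order was Adamts2 (10.6 RPKM), Adamts1 (9.96), Adamts5 (8.81), Adamts4 (7.62), Adamts16 (7.05), Adamts7 (6.53), Adamts12 (4.77) and Adamts10 (1.88), with Adamts9 (0.0263) and Adamts15 (0.0127) near 0. Neighbours in this order had overlapping ranges except Adamts12 with Adamts10 and Adamts10 with Adamts9. Without library 6, Adamts16 (6.97 RPKM) stood above Adamts4 (6.77 RPKM), and Adamts5 with Adamts16 and Adamts7 with Adamts12 no longer overlapped. With STEM the order was Adamts2 (15.7 RPKM), Adamts4 (15), Adamts16 (14.9), Adamts1 (12.5), Adamts12 (7.99), Adamts7 (7.86), Adamts5 (6.25), Adamts10 (2.22), Adamts15 (0.145) and Adamts9 (0.0161). Here Adamts1 stood clear of Adamts12, Adamts5 of Adamts10, Adamts10 of Adamts15 and Adamts15 of Adamts9, and all other neighbours overlapped. Adamts5 moved from the third place to the seventh. Adamts6 was above every member on this scale, at 22 RPKM with horse serum and 20 RPKM with STEM.

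The 10 members together gave 50.9 to 64.9 RPKM with horse serum, the highest being library 6, and 76.4 to 87.8 RPKM with STEM. Adamts5 made up 13.4% to 17.4% of this sum with horse serum and 6.85% to 8.55% with STEM. Adamts16 made up 9.54% to 14.1% and 16.4% to 19.2%. The share of Adamts4 was 11.8% to 12.9% in horse serum libraries 1 to 5, 18.3% in library 6 and 17.2% to 19.1% with STEM. For Adamts4, then, library 6 fell within the STEM range of shares. For Adamts5 its 13.4% was the lowest of the horse serum group, though still above the STEM range. For Adamts16 it lay within its own group.

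**Figure D3:**
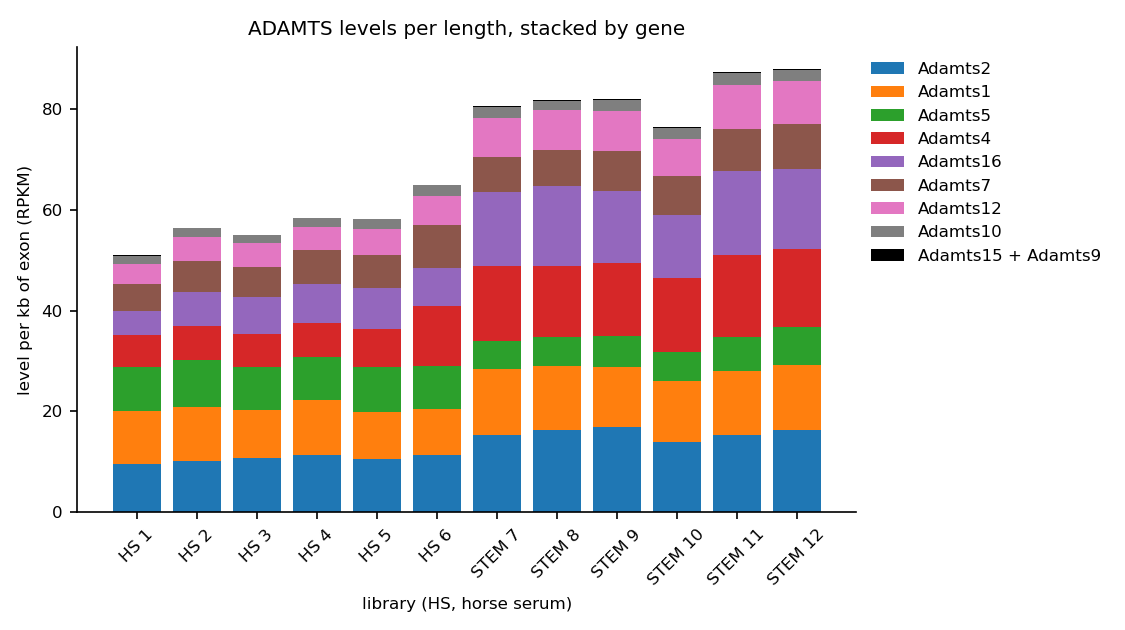
RPKM of the 10 genes stacked by library, with horse serum libraries 1 to 6 on the left and STEM libraries 7 to 12 on the right. The stacks reach 50.9 to 64.9 RPKM with horse serum and 76.4 to 87.8 RPKM with STEM, and the Adamts5 layer is thinner with STEM.

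Ratios within a library need no scaling between libraries. The Adamts4 to Adamts5 ratio per kilobase was 0.703 to 0.833 in horse serum libraries 1 to 5, 1.37 in library 6 and 2.06 to 2.72 with STEM. The Adamts16 to Adamts5 ratio was 0.55 to 0.915 with horse serum and 2.11 to 2.69 with STEM. The Adamts1 to Adamts5 ratio was 1.04 to 1.29 and 1.71 to 2.37. None of these ratios overlapped between the groups. This follows from the genes chosen and adds no separate support. Adamts4, Adamts16 and Adamts1 were each higher in every STEM library, and Adamts5 was lower.

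**Figure D4:**
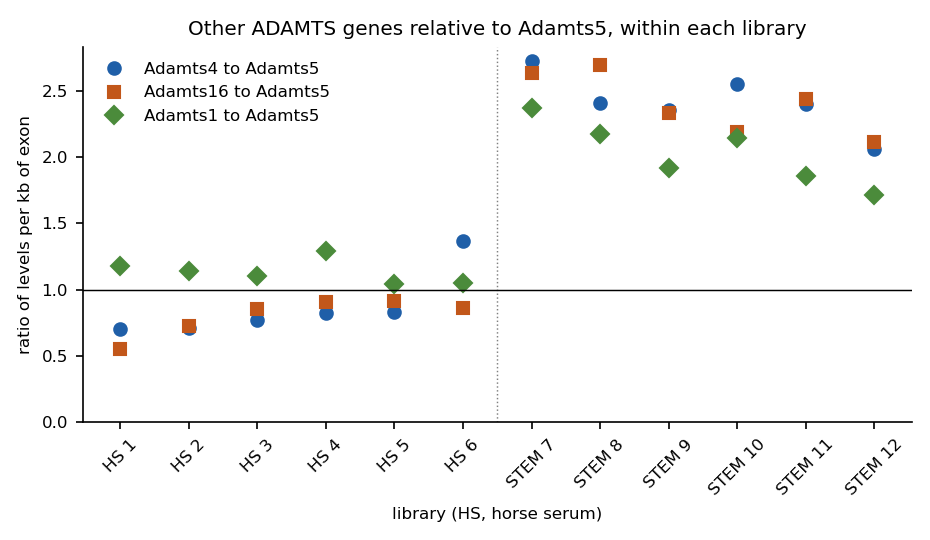
Ratio of the per-kilobase levels of Adamts4, Adamts16 and Adamts1 to that of Adamts5 in each of the 12 libraries, with a line at 1. All 3 ratios are higher in every STEM library than in any horse serum library, as follows from the genes chosen. Horse serum library 6 is above 1 for Adamts4 to Adamts5 at 1.37.

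The gene whose pattern was nearest to Adamts2, the member with the lowest p in the edgeR fit of all 12 libraries, was Ptgfrn, a membrane protein that binds tetraspanins, at a Euclidean distance of 0.262 between mean-centred log2 CPM over the 12 libraries. Col5a3, a collagen V chain, followed at 0.302, and Dnajc25, a DnaJ-type chaperone gene, at 0.307. The lowest p belonged to Adamts4 when library 6 was left out, to Adamts5 when STEM library 12 was, and to Adamts16 with DESeq2, with total counts or when horse serum library 1 or 5 was left out, so the choice of Adamts2 for this search depends on the fit.

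Promoters were read for the members that the RefSeq table held (GRCm38.p6), which were Adamts1, Adamts2, Adamts9 and Adamts12. Those of Adamts1, Adamts2 and Adamts12 are shown because these genes rose together, each from 250 bases before to 50 bases after the start. Capitals mark GGGCGG (the GC box) on either strand and TATAAA, whose matches did not overlap.
Adamts1, chr16:85803064-85803363, minus strand: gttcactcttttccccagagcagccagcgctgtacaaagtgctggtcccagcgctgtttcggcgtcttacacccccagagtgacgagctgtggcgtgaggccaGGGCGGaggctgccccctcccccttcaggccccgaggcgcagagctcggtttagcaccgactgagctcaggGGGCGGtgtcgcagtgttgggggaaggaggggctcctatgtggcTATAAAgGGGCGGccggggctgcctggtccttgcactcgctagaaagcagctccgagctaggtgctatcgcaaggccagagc
Adamts2, chr11:50601835-50602134, plus strand: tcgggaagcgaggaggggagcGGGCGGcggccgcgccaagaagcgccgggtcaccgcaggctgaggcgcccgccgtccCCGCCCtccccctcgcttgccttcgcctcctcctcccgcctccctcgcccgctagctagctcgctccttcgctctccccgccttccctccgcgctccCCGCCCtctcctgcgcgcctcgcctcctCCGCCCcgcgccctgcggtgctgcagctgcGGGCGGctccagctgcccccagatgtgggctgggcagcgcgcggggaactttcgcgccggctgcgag
Adamts12, chr15:11064523-11064822, plus strand: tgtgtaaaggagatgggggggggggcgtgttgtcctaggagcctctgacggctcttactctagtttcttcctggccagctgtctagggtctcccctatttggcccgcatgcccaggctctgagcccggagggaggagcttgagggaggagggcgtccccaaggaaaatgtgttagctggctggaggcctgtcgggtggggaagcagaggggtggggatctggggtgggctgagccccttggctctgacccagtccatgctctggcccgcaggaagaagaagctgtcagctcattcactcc

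Adamts1 held 3 GC boxes and a TATAAA 32 bases before the start, with 18 CpG. Adamts2 held 5 GC boxes and 41 CpG, and Adamts12 held 7 CpG and 0 GC boxes. Of 32851 promoters of the same length, 35.7% held a GC box and 13.6% a TATAAA on either strand, and the median was 7 CpG. The AP-1 motif TGANTCA, found in 7.81% of promoters, was in none of the 4, and the E-box CANNTG, found in 72.3%, was in Adamts2, Adamts9 and Adamts12. None of these motifs was in all 3 promoters shown, while Adamts1 and Adamts2 both held GC boxes and Adamts2 and Adamts12 both held E-boxes. The promoter of Adamts9, which was hardly detected, also held 1 GC box, with 25 CpG.

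Most other family members gave little RNA, Adamts6 and Adamts14 being the exceptions, and the ADAMTS-like relatives went in mixed directions. Of the 9 other Adamts genes 2 passed the filter, Adamts6 and Adamts14, and Adamts13 had 0 counts in every library. Of 7 genes for ADAMTS-like proteins, which keep the thrombospondin repeats but lack the protease, 6 were tested. Adamtsl2, which binds fibrillin and LTBP1, rose (log2 fold change 0.73, edgeR adjusted p 6.41e-04), and so did Adamtsl5 (0.48, adjusted p 1.37e-05). Adamtsl3 (-0.31, adjusted p 4.53e-05) and Thsd4, which promotes fibrillin assembly (-0.48, adjusted p 0.0454), fell.

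Of 12 genes for hyalectans, link proteins and hyaluronan handling, 4 were tested and 2 rose, where 18.9% of all tested genes were called higher, with a median log2 fold change of 0.58. Vcan, the versican core protein and the shared substrate of the hyalectanases, stood at 387, 388, 395, 352, 410 and 634 CPM with horse serum and at 768, 799, 791, 738, 872 and 922 CPM with STEM. Library 6 was again high within its group, as for Adamts4, and the groups did not overlap. The log2 fold change was 0.93 ± 0.12 (SE) with an edgeR adjusted p of 6.94e-05, and 1.08 without library 6. Hapln4, a link protein, rose from 0.878 ± 0.220 to 1.81 ± 0.413 CPM (log2 fold change 1.04, edgeR adjusted p 0.00137). Acan, the aggrecan core protein, had 0 counts in every library, so of these substrates versican was the one with RNA. Without library 6 all 4 tested genes were called as higher, where 26.3% of all genes were so called in that fit, the added ones being Has2, a hyaluronan synthase, and Cd44, a hyaluronan receptor, both named after their values were seen.

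Of 8 genes for the procollagens cut by Adamts2 and for their other processing factors, 7 were tested and 3 rose, with a median of 0.15. Over all tested genes 36.4% were called, 18.9% as higher. Bmp1, which removes the procollagen C-propeptide, rose from 159 ± 14.4 to 257 ± 5.35 CPM (log2 fold change 0.69, edgeR adjusted p 4.20e-07). Col5a1 rose by 0.71 (edgeR adjusted p 7.58e-05) and Col1a1 rose from 367 ± 78.5 to 600 ± 172 CPM, 0.71 ± 0.20 (SE), with an edgeR adjusted p of 0.0161 and overlapping groups. Without library 6, 5 were called, all higher, where 50.8% of all genes were called in that fit, 26.3% as higher.

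Of 20 symbols for other reported substrates and partners, 19 were in the table and 15 were tested, of which 5 rose and 4 fell with a median of -0.17, where 18.9% of all tested genes were called higher and 17.4% lower. Fbn1, the fibrillin-1 of the microfibrils that Adamts10 binds, rose from 929 ± 275 to 1593 ± 178 CPM (log2 fold change 0.78, edgeR adjusted p 0.00203), with library 6 at 1454 CPM inside the STEM range. Bgn, the proteoglycan biglycan, rose by 0.46 (edgeR adjusted p 7.98e-04) and Tnfrsf11b, osteoprotegerin, by 0.91 (adjusted p 4.09e-05). Fbln1, a fibulin that acts as a cofactor of Adamts1, fell from 16.1 ± 3.09 to 9.80 ± 0.820 CPM (log2 fold change -0.72, edgeR adjusted p 2.09e-04), and Ccn2, connective tissue growth factor, fell (-0.82, adjusted p 9.12e-04). Comp, the substrate that gives Adamts7 and Adamts12 their best known activity, had 1 to 11 counts per library and was not tested.

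Of 14 genes for inhibitors, activating enzymes and clearance, 10 were tested, 6 rose and 1 fell, with a median of 0.36, beside the same 18.9% and 17.4%. Timp3, the inhibitor of Adamts4 and Adamts5, stood at 246, 261, 268, 235, 252 and 255 CPM with horse serum and at 517, 496, 485, 473, 528 and 467 CPM with STEM. The groups were far apart and library 6 was ordinary. The log2 fold change was 0.97 ± 0.047 (SE) with an edgeR adjusted p of 4.76e-09. Timp2, better known as an inhibitor of matrix metalloproteinases, rose by 0.36 (edgeR adjusted p 1.13e-04), while Timp1, named after its values were seen as the 1 tested gene of the list called lower, changed by -0.42 (adjusted p 0.0175). Timp4, also named after its values were seen, did not pass the filter, with 5 to 9 counts per library with horse serum and 0 to 1 with STEM.

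The propeptide convertases Furin and Pcsk6 both rose. Furin stood at 33.8, 38.7, 42.5, 40.8, 45.2 and 66.1 CPM with horse serum and at 60.2, 65.7, 62.6, 58.5, 77.6 and 80.4 CPM with STEM. Library 6 overlapped the STEM range and the other horse serum libraries did not. The log2 fold change was 0.60 ± 0.14 (SE) with an edgeR adjusted p of 0.00562. Pcsk6 rose from 2.84 ± 0.306 to 5.00 ± 0.508 CPM (0.82, edgeR adjusted p 6.08e-05), and Pofut2, which adds fucose to thrombospondin repeats for secretion, rose by 0.35 (adjusted p 4.13e-05). Lrp1, the endocytic receptor that takes up Adamts4 and Adamts5, was not called, with a log2 fold change of 0.49 and a 95% interval of -0.14 to 1.11.

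**Figure D5:**
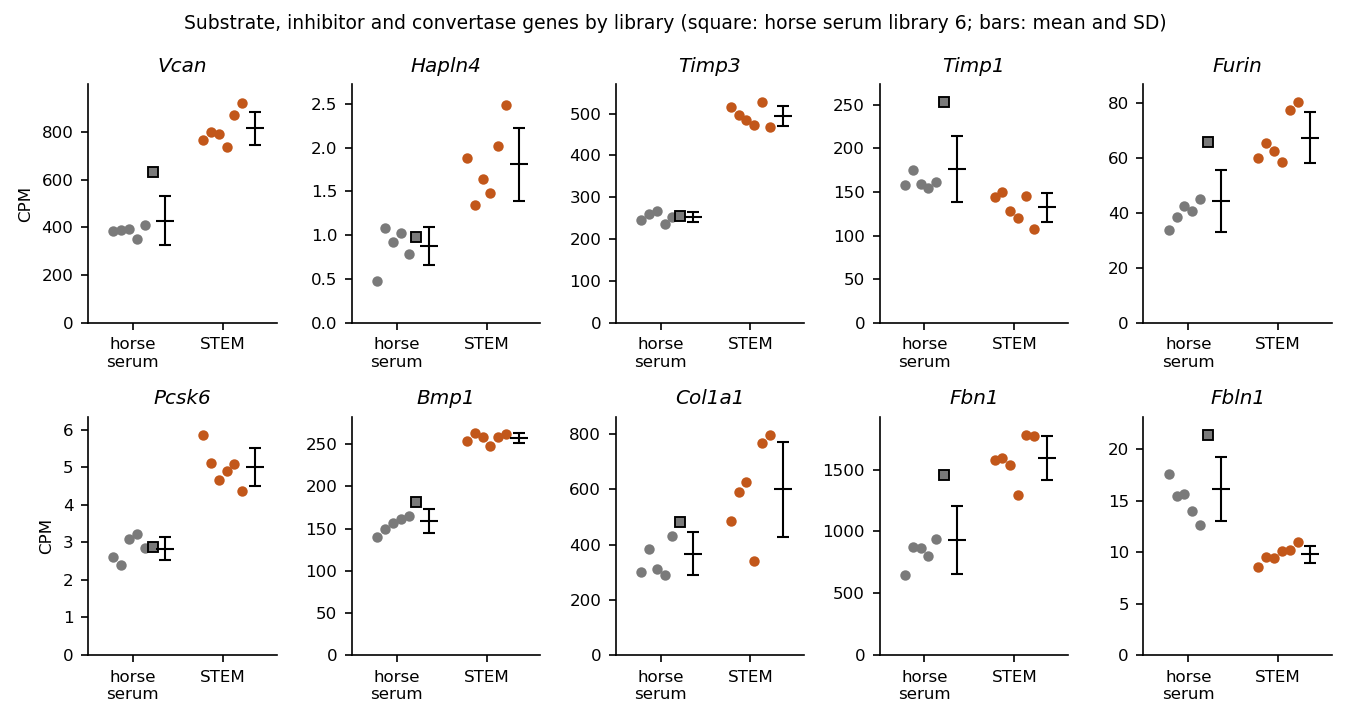
CPM of 10 genes for substrates, inhibitors and processing enzymes in the 6 horse serum and 6 STEM libraries, one point per library, with the mean and SD as bars and library 6 as a square. Vcan, Timp3, Bmp1, Pcsk6 and Hapln4 are higher in every STEM library and Fbln1 and Timp1 lower, while library 6 reaches the STEM range for Furin and Fbn1. For Col1a1 the groups overlap without library 6 too, with horse serum up to 431 CPM and the lowest STEM library at 339 CPM.

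Some markers of other cell states were called as well. Over all tested genes, 18.9% were called higher and 17.4% lower, or 26.3% and 24.5% without library 6. Of 5 myoblast markers 3 fell, Sdc4, Vcam1 and Myf5, while Pax7 (log2 fold change -0.04) and Myod1 (0.03) were not called. Together the 5 gave 462 to 517 CPM in horse serum libraries 1 to 5, 354 CPM in library 6 and 292 to 335 CPM with STEM. The largest parts of this sum with horse serum were Sdc4 (229 ± 47.3 CPM) and Vcam1 (101 ± 5.04 CPM). Of 12 myotube markers, 1 was higher and 2 were lower with STEM, and 6 were lower when library 6 was left out. Of 5 fibroblast markers, Dpt and Pi16 rose and Ly6a fell, Thy1 had at most 1 count, and Pdgfra was called higher when library 6, at 24.8 CPM against 9.32 to 13.1 CPM in the other horse serum libraries, was left out (log2 fold change 0.67, edgeR adjusted p 2.48e-06). The fibroblast sum was 38.0 to 52.8 CPM with horse serum and 41.1 to 44.4 CPM with STEM. Of 5 smooth muscle markers 2 rose and 1 fell, with a sum of 1819 to 2385 CPM and 2377 to 2886 CPM. The macrophage list summed to 2.15 to 5.21 CPM with horse serum and 4.24 to 5.71 CPM with STEM, and the endothelial list to at most 1 CPM in any library. The part of these marker changes in the ADAMTS results was not tested. Within horse serum, library 6 had the highest level of Adamts4, Adamts7, Adamts10 and Adamts12 and the lowest of Adamts1, beside its low myotube markers.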

How the data were processed

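C2C12 myotubes in 4% horse serum or 4% STEM were profiled in 6 libraries each by stranded, ribosomal RNA-depleted total RNA sequencing. The authors deposited raw read counts per Ensembl gene on GRCm38, made per their processing notes with STAR 2.7.3a and featureCounts 1.6.3, and DESeq2 1.26.0 is named there too. The annotation release and strand setting are not given in the sources used here. Groups came from the sample labels.

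Names, positions and exon lengths were taken from GENCODE M21, which held 55227 of 55487 listed genes. edgeR 4.0.16 (TMM, filterByExpr, robust quasi-likelihood fit, R 4.3.3) tested all 14175 genes that passed the filter, without covariates, and p-values were adjusted over all of them. TMM-scaled CPM and RPKM over the union of exons were computed from the counts. Exact permutation tests used all 924 splits of 6 against 6. Replicate pairs differed by more than counting noise, with a chi-square of 3.54 to 76.6 per degree of freedom. Pairs with horse serum library 6 gave 62.8 to 76.6, other horse serum pairs 3.73 to 10.1 and STEM pairs 3.54 to 20.9.

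As alternatives, the libraries were scaled by total counts, upper quartiles or DESeq2's size factors, and other runs used no filter, at least 10 counts in every library, an adjusted p of 0.01, DESeq2 1.42.0, limma-voom (limma 3.58.1) and leaving out each library. Simulated counts of 14049 genes for this comparison held 200 changed genes. From them edgeR recovered 97 of 100 genes changed 4-fold and 93 of 100 changed 2-fold, with 5% of calls false. In the real libraries 5155 genes were called, and replicate pairs ran from 3.54 to 76.6 in chi-square per degree of freedom. Whether the simulated recovery and false-call rates hold for the real libraries was not tested.

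The members, the gene lists and the tests were chosen with earlier results of these data known. Named genes were the 10 members, other Adamts genes that passed the filter, the called genes with the 4 lowest p-values of each list, Vcan, Acan, Timp3, Lrp1, Furin, Comp, Fbn1 and Col1a1, and the 3 genes nearest in pattern to the member with the lowest p. Genes named outside this rule are marked as named after their values were seen, apart from marker genes, genes at 0 counts and overlapping genes.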

Additional observations from a re-analysis of the deposited data

Results flagged for a closer look

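In horse serum library 6, Adamts4 stood at 57.2 CPM, against 29.9 to 35.9 CPM in the other 5 horse serum libraries. The gap to the nearest library was 0.778 of the whole range of the group, above Dixon's 95% critical value for 6 samples. This was the 1 flag among 20 groups tested, the 10 members in each of the conditions, and chance flags about 1 in 20 groups. Even at 57.2 CPM the library lay below every STEM library. It also had low myotube markers, and their part in this value was not tested.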

How the results depend on the processing

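Adamts1, Adamts2, Adamts4, Adamts5, Adamts12 and Adamts16 kept their direction and call in all 19 alternatives of the edgeR result. Adamts15 did so in the 18 that tested it, a description only, as it passed the main filter through its STEM libraries alone. Adamts7 kept its call in 8 of 19 and Adamts10 in 7 of 19, always in the same direction. For Adamts7 the log2 fold change was 0.28 with total counts (adjusted p 0.0658), 0.24 with upper-quartile scaling (0.0501) and 0.21 to 0.35 when 1 library was left out (adjusted p 2.91e-04 to 0.0917). For Adamts10 it was 0.25 with total counts (0.054), 0.22 with upper-quartile scaling (0.0503), 0.23 with no filter (0.0651) and 0.21 to 0.29 when 1 library was left out (adjusted p 0.00341 to 0.0795). In the exact permutation tests the difference of mean CPM ran from 6.89 to 10.8 for Adamts7 (p 0.00433 to 0.0671) and from -0.199 to -0.117 for Adamts9 (p 0.0476 to 0.227) when 1 library was left out. At an adjusted p of 0.01, 3266 genes were called in place of 5155. With no filter, 2 other Adamts genes were called in place of 1. Hyalectan and hyaluronan genes called numbered 1 with at least 10 counts in every library, where 3 were tested, and 2 to 4 when 1 library was left out. Procollagen genes called numbered 3 to 5, with 5 when horse serum library 6 was left out. Where no construction of the alternative shows it, the cause was not tested. Other scalings moved the median log2 fold change of all genes by at most 0.0202. No paired analysis was possible because the groups share no replicate numbers. Adamts9 and Adamts15 had few counts per library, and the permutation tests cannot give a p below 0.00216.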
